A study of Noccaea goesingensis with 12 samples.

Results

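The genes of glucosinolate synthesis, modification and breakdown examined here were 59 *A. thaliana* genes, chosen by locus identifier for their place in the pathway. Earlier results of these data were known when they were chosen. The set comprised 6 MYB regulators, 9 genes of chain elongation, 17 of core structure synthesis, 13 of side chain modification, 12 of breakdown and 2 of transport. Of the 59 genes, 21 were present in the ecotype comparisons of *N. goesingensis* roots, among 5273 genes listed in all. With Ni 12 of them were listed, without Ni 14, and 5 in both states. The other 38 were in neither list.

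Glucosinolates are the sulfur- and nitrogen-containing defence compounds of the Brassicaceae. In *A. thaliana*, aliphatic glucosinolates are built from methionine after its side chain has been elongated, and indolic glucosinolates from tryptophan. The core structure is made by cytochromes P450, glutathione conjugation, a C-S lyase, glucosyltransferases and sulfotransferases, and its side chain is then modified. Myrosinases cleave the stored compounds when tissue is damaged, and specifier proteins influence whether nitriles or isothiocyanates form.

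*N. goesingensis* is a nickel hyperaccumulator of the Brassicaceae. Roots were sampled from 4 groups, which were the metallicolous ecotype with Ni (TM Ni, 2 libraries), the non-metallicolous ecotype with Ni (NTM Ni, 3 libraries), the metallicolous ecotype without Ni (TM control, 4 libraries) and the non-metallicolous ecotype without Ni (NTM control, 3 libraries). The TM ecotype came from the serpentinite site Redlschlag and the NTM ecotype from the dolomite site Flatz, 1 site each, so that ecotype and site of origin cannot be told apart. Ni was supplied for 3 weeks, and each library pooled 5 plants by the methods of the study. Those methods give 3 samples per group, whereas the labels give 2 libraries for TM Ni and 4 for TM control. This difference was not resolved, and it bears on the TM values. Each group had 1 deposited expression value per gene, in read fragments scaled to transcript length and library size (FPKM), so no replicate error and no test could be computed here.

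A gene was listed where the deposited TM to NTM comparison had given an unadjusted *p*-value under 0.05, which left 1944 genes with Ni and 4460 without Ni. A gene that is not listed either did not pass that limit or was not tested, and its level is unknown here. Ratios are log2 of TM over NTM with 0.1 FPKM added to each value, and a gene was called past 2-fold where the size of that ratio was at least 1. Fold values in the text were computed from the values without that addition, so they can differ slightly from the log2 ratios at low levels. The list without Ni was the longer one, and 1 of the NTM Ni libraries was far shallower than the others by the read statistics of the study. A gene listed in 1 state alone is therefore not shown to differ between the states.

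In roots with Ni the listed genes of core structure synthesis were all higher in TM. Over all roles, 9 of the 12 listed genes (75.0%) were higher in TM and 3 were lower, whereas 46.2% of all genes listed with Ni were higher in TM. The median log2 ratio was 0.95 for the 12 genes and -0.91 for all listed genes. Past 2-fold were 8 of the 12 (66.7%), against 86.1% of all listed genes. In roots without Ni, 9 of the 14 listed genes (64.3%) were higher in TM, against 44.5% of all listed genes. Their median log2 ratio was 0.75, beside -0.71 for all listed genes, and 7 of them (50.0%) were past 2-fold, against 60.2% of all listed genes. Of the genes past 2-fold, 5 were higher and 3 lower in TM with Ni, and 4 were higher and 3 lower without Ni. When ratios were centred on the median of all listed genes, 9 were past 2-fold higher and 0 past 2-fold lower in TM in either state. That median lies among the genes lower in TM, which outnumber those higher in TM in both lists. It is far from 0 because the lists hold few genes near 0. Centring therefore moved every ratio upward, and the same count over all listed genes was not made. These shares describe the listed genes and were not tested.

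**Figure D1:**
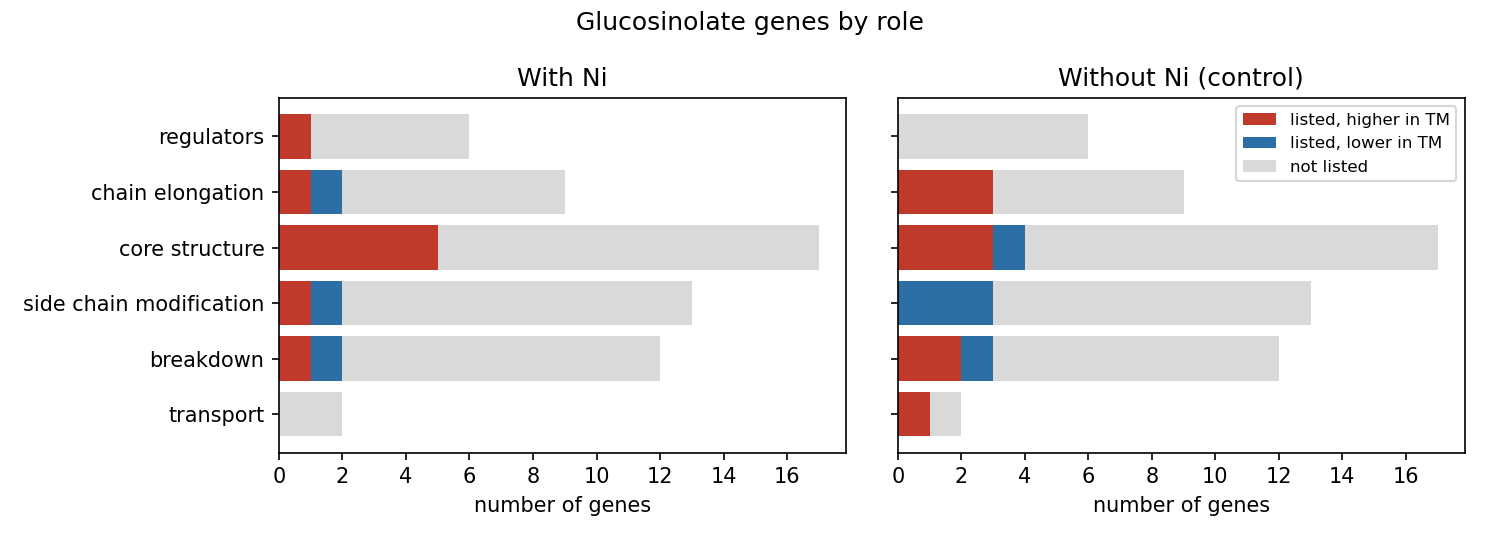
Number of glucosinolate genes in each role that were listed as higher in TM (red), listed as lower in TM (blue) or not listed (grey), with Ni on the left and without Ni on the right. The 5 core structure genes listed with Ni are all higher in TM, and the 3 side chain modification genes listed without Ni are all lower in TM, *CYP81F3* only as long as ratios are not centred on the median of all listed genes.

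When the genes were grouped by branch, a grouping made after the values were seen, the listed aliphatic genes were mostly higher in TM and the listed indolic genes lower. Over all listed genes, 46.2% with Ni and 44.5% without Ni were higher in TM, and the branch counts below are small and were not tested. Of 27 genes of the aliphatic branch, 8 were listed with Ni, 7 of them higher in TM, and 5 without Ni, 4 of them higher in TM. Of 15 genes of the indolic branch, 1 was listed with Ni and 3 without Ni, and all were lower in TM, except that *CYP81F3* came out marginally higher in TM (log2 ratio 0.04) when ratios were centred on the median of all listed genes. Of the 17 genes that serve both branches or act in breakdown and transport, 2 of 3 listed with Ni and 5 of 6 listed without Ni were higher in TM.

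**Figure D2:**
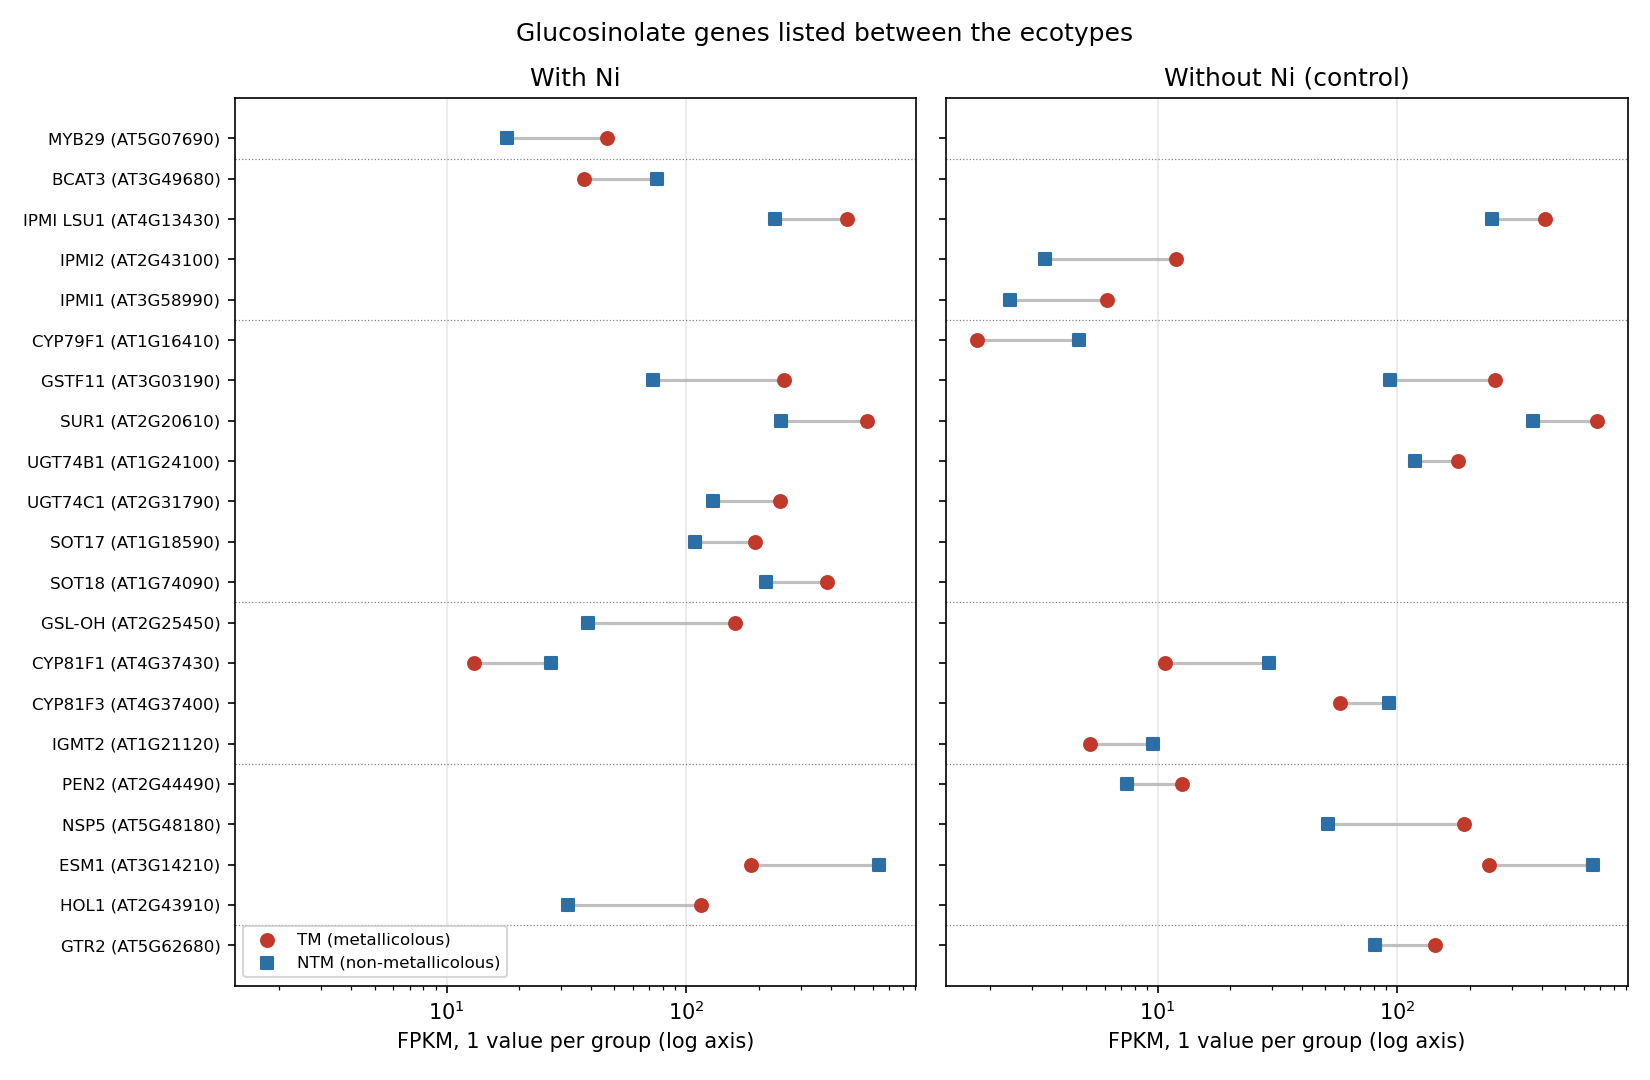
FPKM of each listed glucosinolate gene in TM (red circles) and NTM (blue squares), 1 value per group on a log axis, with Ni on the left and without Ni on the right. Dotted lines separate the roles in the order regulators, chain elongation, core structure, side chain modification, breakdown and transport, and an empty row means that the gene was not listed in that state. Values run between 1.76 FPKM for *CYP79F1* in TM control and 677.0 FPKM for *SUR1* in TM control.

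Of the 6 regulators, 1 was listed with Ni and 0 without Ni, beside 21 of all 59 genes listed in either state. The share of all tested genes that was listed is unknown here, so no shortage of regulators is shown. Loci are given in the coordinates of *A. thaliana* TAIR10 as deposited. The MYB factors activate the biosynthetic genes, with *MYB28*, *MYB29* and *MYB76* acting on the aliphatic branch and *MYB34*, *MYB51* and *MYB122* on the indolic branch in *A. thaliana*. *MYB29* (AT5G07690, chromosome 5, 2446764 to 2448543) was the 1 listed regulator, with 46.7 FPKM in TM Ni and 17.9 FPKM in NTM Ni. Its level was thus 2.61-fold higher in TM with Ni (log2 ratio 1.38), and it was not listed without Ni. *MYB28* (AT5G61420), *MYB76* (AT5G07700), *MYB34* (AT5G60890), *MYB51* (AT1G18570) and *MYB122* (AT1G74080) were in neither list.

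In chain elongation, methionine is deaminated, condensed, isomerised and oxidatively decarboxylated, and the product is transaminated again. All 3 listed subunits of the isopropylmalate isomerase, which carries out the isomerisation, were higher in TM. The large subunit *IPMI LSU1* (AT4G13430, chromosome 4, 7803933 to 7807871), which in *A. thaliana* also serves leucine synthesis, had 466.4 FPKM in TM Ni and 235.1 FPKM in NTM Ni. Without Ni it had 413.5 FPKM in TM and 248.0 FPKM in NTM. The ecotypes kept this order in both states, at 1.98-fold with Ni and 1.67-fold without Ni, both short of 2-fold.

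The small subunits were listed without Ni only and at far lower levels than the large one. *IPMI2* (AT2G43100, chromosome 2, 17920660 to 17921689) had 11.9 FPKM in TM control and 3.40 FPKM in NTM control, which is 3.49-fold. *IPMI1* (AT3G58990, chromosome 3, 21797058 to 21798303) had 6.17 FPKM in TM control and 2.41 FPKM in NTM control, which is 2.56-fold. Both subunits were past 2-fold and higher in TM, like the large subunit in direction.

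*BCAT3* (AT3G49680, chromosome 3, 18422649 to 18425693) encodes a plastid branched-chain aminotransferase that acts at the end of the elongation cycle and in amino acid synthesis. It was listed with Ni only, with 37.3 FPKM in TM Ni and 75.8 FPKM in NTM Ni. It was the only listed elongation gene that was lower in TM, by 2.03-fold, and its log2 ratio of -1.02 became -0.11 with centring on the median of all listed genes. The entry enzyme *BCAT4* (AT3G19710), the methylthioalkylmalate synthases *MAM1* (AT5G23010) and *MAM3* (AT5G23020), the dehydrogenase *IPMDH1* (AT5G14200) and the plastid transporter *BAT5* (AT4G12030) were in neither list.

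In chain elongation 4 of 9 genes were listed, and in core structure synthesis, the largest role, 7 of 17. Its first step is the conversion of amino acids to aldoximes by CYP79 enzymes. *CYP79F1* (AT1G16410, chromosome 1, 5608807 to 5611426), which acts on chain-elongated methionine, had 1.76 FPKM in TM control and 4.70 FPKM in NTM control. It was the only listed core gene that was lower in TM, by 2.66-fold, with a log2 ratio of -1.36 that became -0.66 with centring. Its TM control value was the lowest of any listed member in any group. Its neighbouring homologue *CYP79F2* (AT1G16400) was in neither list, nor were the tryptophan-dependent *CYP79B2* (AT4G39950) and *CYP79B3* (AT2G22330) or the aldoxime-oxidising *CYP83A1* (AT4G13770) and *CYP83B1* (AT4G31500).

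*GSTF11* (AT3G03190, chromosome 3, 735028 to 735987) encodes a glutathione S-transferase that is assigned to the aliphatic branch in *A. thaliana*. It had 255.9 FPKM in TM Ni and 72.8 FPKM in NTM Ni, and 254.8 FPKM in TM control and 93.4 FPKM in NTM control. *GSTF11* was 3.52-fold higher in TM with Ni and 2.73-fold higher without Ni, and was the only core gene past 2-fold in both states unless ratios were centred, when *SUR1* was as well (log2 ratios 2.09 with Ni and 1.58 without Ni). The glutathione S-transferases *GSTU20* (AT1G78370), *GSTF9* (AT2G30860) and *GSTF10* (AT2G30870) and the gamma-glutamyl peptidase *GGP1* (AT4G30530), which trims the glutathione conjugate, were in neither list.

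*SUR1* (AT2G20610, chromosome 2, 8877960 to 8880388) encodes the C-S lyase through which both branches pass. It had 567.7 FPKM in TM Ni and 249.3 FPKM in NTM Ni, and 677.0 FPKM in TM control and 369.3 FPKM in NTM control. In TM only 16 of the genes listed with Ni and 26 of those listed without Ni had a higher FPKM than *SUR1*. Its level in TM was 2.28-fold that in NTM with Ni and 1.83-fold without Ni.

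The last core steps add glucose and sulfate. The glucosyltransferase *UGT74C1* (AT2G31790, chromosome 2, 13518211 to 13523708), assigned to the aliphatic branch, had 244.9 FPKM in TM Ni and 129.5 FPKM in NTM Ni. *UGT74B1* (AT1G24100, chromosome 1, 8525435 to 8527087), the glucosyltransferase of both branches, had 179.7 FPKM in TM control and 118.6 FPKM in NTM control. Each was listed in 1 state, at 1.89-fold for *UGT74C1* with Ni and 1.51-fold for *UGT74B1* without Ni.

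The sulfotransferases *SOT17* and *SOT18*, which act mainly on aliphatic desulfoglucosinolates, were listed with Ni only. *SOT17* (AT1G18590, chromosome 1, 6398580 to 6399942) had 193.3 FPKM in TM Ni and 108.4 FPKM in NTM Ni. *SOT18* (AT1G74090, chromosome 1, 27862909 to 27864193) had 385.2 FPKM in TM Ni and 214.8 FPKM in NTM Ni. The ratios of these homologues were close, 1.78-fold for *SOT17* and 1.79-fold for *SOT18*, and neither was past 2-fold. *SOT16* (AT1G74100), which prefers indolic substrates, was in neither list.

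Of the 13 genes of side chain modification, 4 were listed, 1 aliphatic and 3 indolic. *GSL-OH* (AT2G25450, chromosome 2, 10829916 to 10831655) encodes a dioxygenase that hydroxylates the butenyl side chain of an aliphatic glucosinolate. It had 159.7 FPKM in TM Ni and 39.0 FPKM in NTM Ni. This 4.10-fold difference (log2 ratio 2.03) was the largest among the listed members of the 59 genes in either state, and 209 of the genes listed with Ni were higher in TM by more. *GSL-OH* was not listed without Ni. The study reported AT2G25450 as down-regulated by Ni in NTM, from its own comparison of Ni with control, which was not recomputed here.

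The 3 listed indolic modification genes were lower in TM, *CYP81F3* among them only as long as ratios were not centred. *CYP81F1* (AT4G37430, chromosome 4, 17597110 to 17598958), a cytochrome P450 of indole ring hydroxylation, had 13.0 FPKM in TM Ni and 27.3 FPKM in NTM Ni, and 10.7 FPKM in TM control and 29.0 FPKM in NTM control. It was 2.1-fold lower in TM with Ni and 2.70-fold lower without Ni, but within 2-fold after centring (log2 ratios -0.16 and -0.72). Its homologue *CYP81F3* (AT4G37400, chromosome 4, 17584051 to 17586360), which lies 10749 bases away from it, had 57.8 FPKM in TM control and 91.8 FPKM in NTM control. *CYP81F3* was 1.59-fold lower in TM without Ni, with a log2 ratio of -0.67 that became 0.04 when ratios were centred on the median of all listed genes.

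*IGMT2* (AT1G21120, chromosome 1, 7395228 to 7396773) encodes an O-methyltransferase that acts after the CYP81F hydroxylation. It had 5.22 FPKM in TM control and 9.54 FPKM in NTM control, which is 1.83-fold lower in TM. Its log2 ratio of -0.86 became -0.15 with centring. *CYP81F2* (AT5G57220), *CYP81F4* (AT4G37410) and *IGMT1* (AT1G21100) were in neither list. The S-oxygenases of aliphatic side chains, *FMO GS-OX1* (AT1G65860), *FMO GS-OX2* (AT1G62540), *FMO GS-OX3* (AT1G62560), *FMO GS-OX4* (AT1G62570) and *FMO GS-OX5* (AT1G12140), and the alkenyl-forming *AOP2* (AT4G03060) were in neither list either.

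Among breakdown genes, the largest ratios in opposite directions without Ni were those of *NSP5* and *ESM1*. *NSP5* (AT5G48180, chromosome 5, 19540937 to 19542426) encodes a nitrile-specifier protein, which directs hydrolysis toward nitriles. It had 189.1 FPKM in TM control and 51.5 FPKM in NTM control, 3.67-fold higher in TM, and was not listed with Ni. *ESM1* (AT3G14210, chromosome 3, 4729823 to 4731803), the epithiospecifier modifier, is known in *A. thaliana* for favouring isothiocyanates over nitriles.

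*ESM1* had 186.9 FPKM in TM Ni and 636.8 FPKM in NTM Ni, and 240.7 FPKM in TM control and 653.7 FPKM in NTM control. It was 3.41-fold lower in TM with Ni and 2.72-fold lower without Ni. After centring it was still lower in TM but within 2-fold, with log2 ratios of -0.86 with Ni and -0.73 without Ni. In NTM it ranked near the top of the listed genes, with 32 genes above it with Ni and 46 without Ni. No other listed member of the 59 genes was past 2-fold lower in TM at a level above 100 FPKM in either ecotype.

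*PEN2* (AT2G44490, chromosome 2, 18364756 to 18367725), an atypical myrosinase of pathogen defence, had 12.6 FPKM in TM control and 7.41 FPKM in NTM control, 1.70-fold higher in TM. It was the only listed glucosidase of the set. The classical myrosinases *TGG1* (AT5G26000) and *TGG2* (AT5G25980), the root myrosinases *TGG4* (AT1G47600) and *TGG5* (AT1G51470), the root ER body glucosidase *PYK10* (AT3G09260), the epithiospecifier *ESP* (AT1G54040) and the nitrile-specifiers *NSP1* (AT3G16400) and *NSP2* (AT2G33070) were in neither list.

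*HOL1* (AT2G43910, chromosome 2, 18184461 to 18187028) encodes a methyltransferase of thiocyanate and halides, which disposes of thiocyanate released from indolic glucosinolates. It had 115.1 FPKM in TM Ni and 32.1 FPKM in NTM Ni, 3.58-fold higher in TM, and was not listed without Ni. Its homologue *HOL2* (AT2G43920, chromosome 2, 18189008 to 18191348), not part of the 59 genes, lies 1979 bases away from it and was listed in both states. *HOL2* had 108.5 FPKM in TM Ni and 13.7 FPKM in NTM Ni, but 56.0 FPKM in TM control and 130.6 FPKM in NTM control.

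The ecotype order of *HOL2* was thus opposite with and without Ni, 7.94-fold higher in TM with Ni and 2.33-fold lower in TM without Ni, and stayed opposite after centring (log2 ratio -0.51 without Ni). How reads of related sequence were divided between *HOL1* and *HOL2* was not examined.

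Transport was represented by *GTR2* (AT5G62680, chromosome 5, 25159230 to 25167943), a proton-coupled importer that loads glucosinolates from the apoplast. It had 144.0 FPKM in TM control and 80.6 FPKM in NTM control, 1.79-fold higher in TM. Its homologue *GTR1* (AT3G47960) was in neither list.

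**Figure D3:**
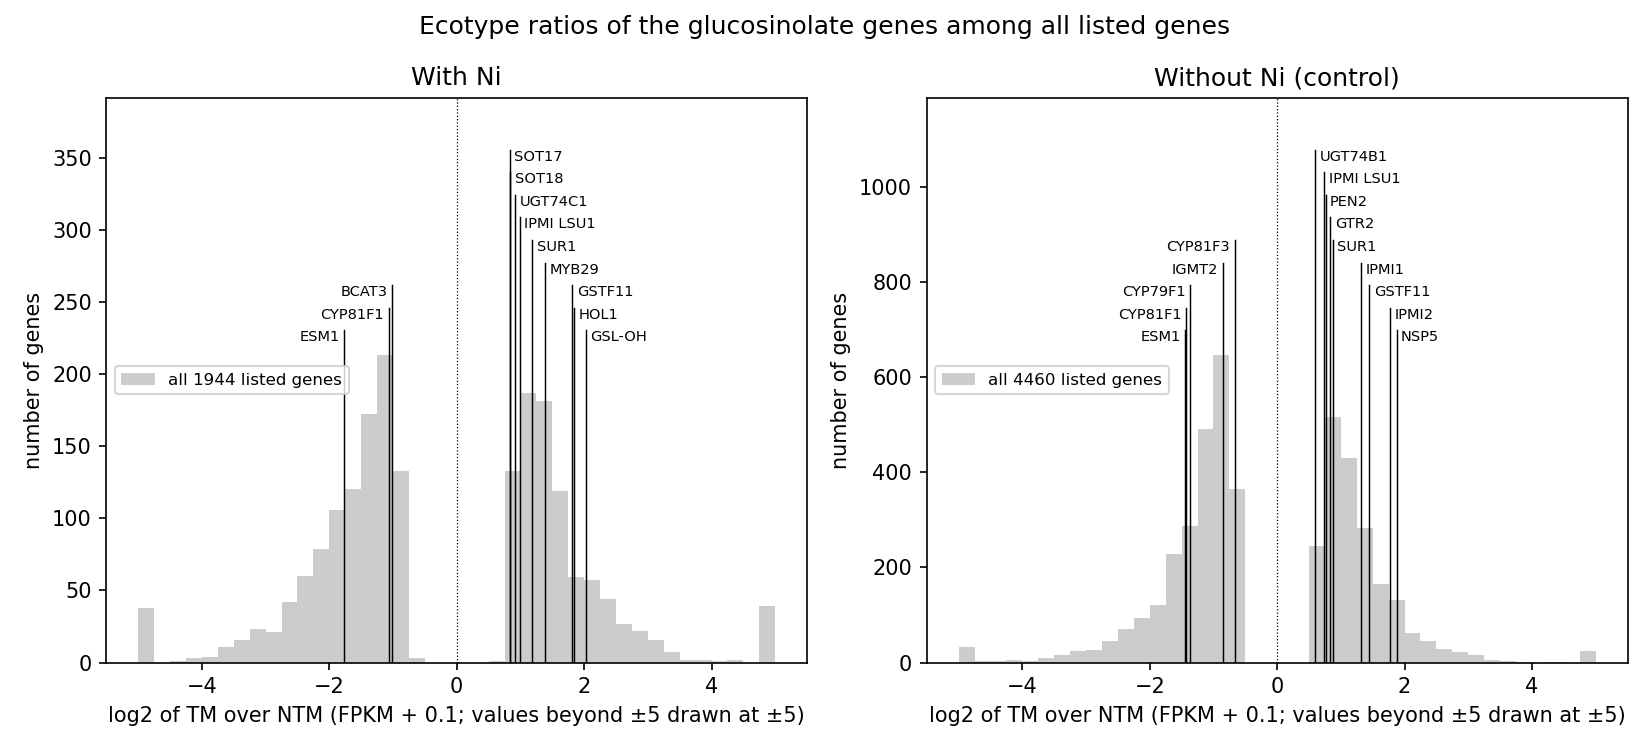
Distribution of the log2 ratio of TM over NTM over all 1944 genes listed with Ni (left) and all 4460 listed without Ni (right), in grey, with a vertical line at the ratio of each listed glucosinolate gene. Few genes lie near 0 because the lists hold only genes that passed the limit on the *p*-value, and the glucosinolate genes lie between -1.77 and 2.03 with Ni and between -1.44 and 1.87 without Ni, inside the range of the other genes.

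Ni and control values could be set side by side only for the 5 members listed in both states, *IPMI LSU1*, *GSTF11*, *SUR1*, *CYP81F1* and *ESM1*. All 5 had the same ecotype order in both states, as had 98.9% of the 1131 genes listed in both. None of the 5 differed between Ni and control by 2-fold in either ecotype, against 4.6% of the 1131 genes in TM and 8.13% in NTM. Whether both lists were scaled together was not settled, and these ratios share their group values with the ecotype ratios above.

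In TM the log2 ratio of Ni over control lay between -0.36 for *ESM1* and 0.27 for *CYP81F1*, with a median of 0.01 over the 5 genes and -0.01 over all 1131. *GSTF11* had almost the same level in both TM groups (log2 ratio 0.01). In NTM all 5 had the lower value with Ni, with log2 ratios between -0.57 for *SUR1* and -0.04 for *ESM1*. The median was -0.09 over the 5 genes and 0.05 over all 1131. How many of the 1131 genes had the lower value with Ni in NTM was not counted, and 1 of the NTM Ni libraries was far shallower than the others. *SUR1* was the only one of the 5 genes with a lower level under Ni by more than 0.5 on the log2 scale, in NTM, while its ratio in TM was -0.25. By contrast, *HOL2* had a ratio of 0.95 in TM and of -3.25 in NTM.

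**Figure D4:**
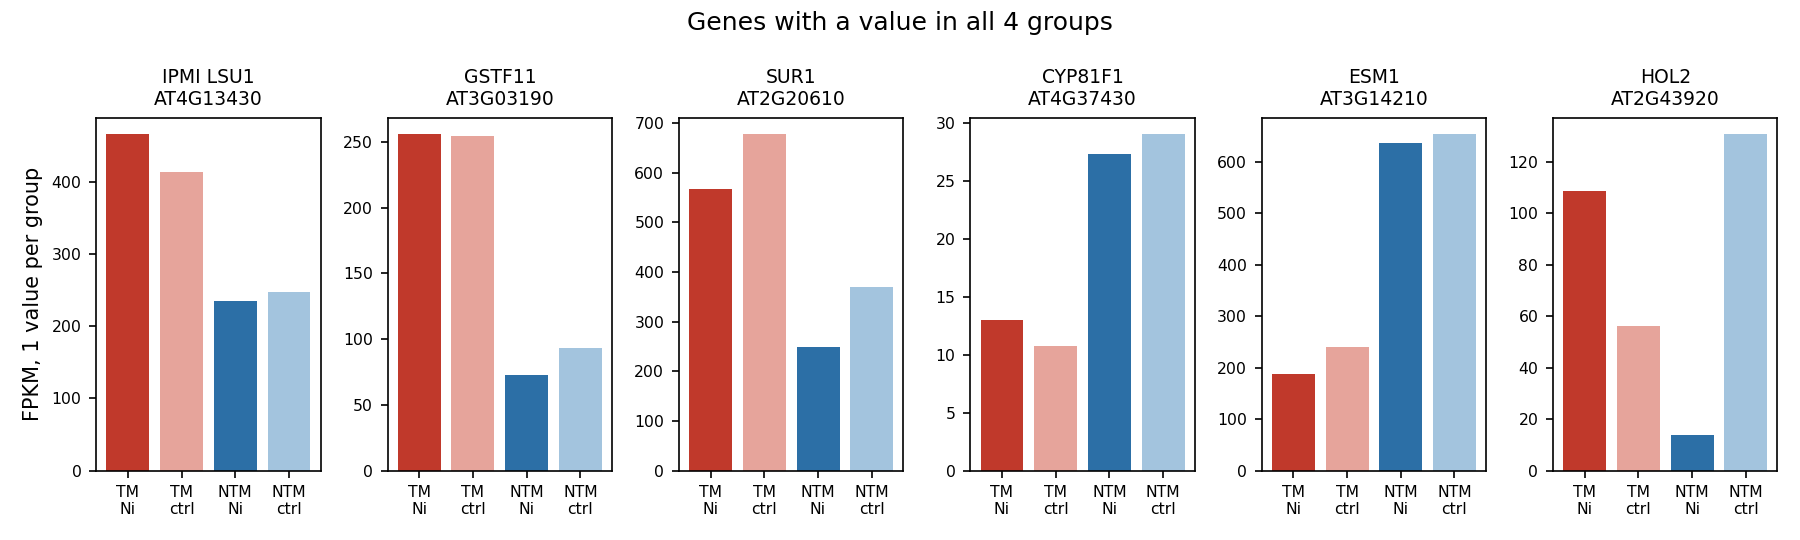
FPKM of the 5 glucosinolate genes listed in both states and of *HOL2*, 1 value per group without error, in TM Ni, TM control, NTM Ni and NTM control from left to right, with a separate axis starting at 0 for each gene. The TM bars stand above the NTM bars in both states for *IPMI LSU1*, *GSTF11* and *SUR1* and below them for *CYP81F1* and *ESM1*, while *HOL2* changes its order, with 108.5 FPKM in TM Ni, 56.0 in TM control, 13.7 in NTM Ni and 130.6 in NTM control.

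Of 34 further genes of the pathway, such as sulfate activation, co-regulators, ER body glucosidases and nitrilases, 9 were listed, 5 with Ni and 8 without Ni. With Ni 3 of the 5 were higher in TM, and without Ni 2 of the 8, beside 46.2% and 44.5% of all listed genes. *APK1* (AT2G14750), an adenylylsulfate kinase that makes the sulfate donor of the sulfotransferases, had 170.1 FPKM in TM Ni and 62.0 FPKM in NTM Ni, and 171.0 FPKM in TM control and 108.1 FPKM in NTM control. It was higher in TM in both states, by 2.74-fold with Ni and 1.58-fold without Ni, in the direction of *SOT17* and *SOT18*.

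*SDI1* (AT5G48850), which represses glucosinolate synthesis under sulfur deficiency in *A. thaliana*, had 8.76 FPKM in TM control and 3.42 FPKM in NTM control. It was 2.57-fold higher in TM, on the same side as most of the listed biosynthetic genes. *IGMT4* (AT1G21130), 2288 bases from *IGMT2* and of the same methyltransferase family, had 16.8 FPKM in TM Ni and 52.4 FPKM in NTM Ni, and 21.1 FPKM in TM control and 42.4 FPKM in NTM control. It was lower in TM in both states, like the indolic modification genes above, and within 2-fold after centring (log2 ratios -0.72 with Ni and -0.30 without Ni).

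The glucosidase *BGLU18* (AT1G52400) had 5.25 FPKM in TM control and 16.1 FPKM in NTM control. The nitrilase *NIT2* (AT3G44300) had 11.9 FPKM in TM Ni and 29.5 FPKM in NTM Ni, and 9.03 FPKM in TM control and 17.9 FPKM in NTM control. Both were lower in TM wherever they were listed, by 3.06-fold for *BGLU18* and by 2.48-fold with Ni and 1.98-fold without Ni for *NIT2*. Both were within 2-fold after centring, with log2 ratios of -0.89 for *BGLU18* and of -0.40 with Ni and -0.27 without Ni for *NIT2*. Outside the pathway proper, 0 of 7 genes of tryptophan synthesis and 1 of 3 genes of camalexin synthesis were listed. This was *CYP71A13* (AT2G30770), which makes indole-3-acetonitrile for camalexin, with 21.2 FPKM in TM control and 35.6 FPKM in NTM control.

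Marker genes of the root also differed between the ecotypes. Of 12 root markers 7 were listed, the endodermal genes *CASP2*, *CASP4*, *CASP5* and *SCR*, the root hair genes *EXPA18* and *PRP3*, and the iron transporter gene *IRT1*. The largest ratio among those lower in TM was that of *CASP5*, at 7.58-fold with Ni and 4.94-fold without Ni. Over all listed genes, 2474 of 4460 were lower in TM without Ni and 1045 of 1944 with Ni. Without Ni all 6 listed root markers were lower in TM, with summed levels of 168.2 FPKM in TM and 339.7 FPKM in NTM. With Ni 3 of 4 were lower in TM, and *IRT1* was higher in TM, with 346.4 FPKM in TM and 38.1 FPKM in NTM. The summed levels were 405.5 FPKM in TM and 209.2 FPKM in NTM with *IRT1*, and 59.1 FPKM in TM and 171.1 FPKM in NTM without it. Of 12 leaf markers 3 were listed, the light-harvesting genes *LHCB1.1*, *LHCB1.2* and *LHCB1.3*, all lower in TM, with summed levels of 58.4 FPKM in TM control and 170.8 FPKM in NTM control for 3 genes, and 12.5 FPKM in TM Ni and 35.9 FPKM in NTM Ni for 1. None of the listed markers was at 0 in any group, and the levels of the markers not listed are unknown here. Their part in the ecotype ratios of the glucosinolate genes was not tested, and fewer cells of a type and less RNA per cell cannot be told apart.

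Reads of *N. goesingensis* had been aligned to *A. thaliana* genes, so that a level also reflects how well a gene's sequence is conserved. Whether the ecotypes differ in sequence at these genes was not examined. Members of gene families, such as *CYP79F1*, *IPMI1*, *IPMI2*, *SOT17*, *SOT18*, *CYP81F1*, *CYP81F3* and *IGMT2*, can share reads with their homologues, and their single values are uncertain to that extent.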

How the data were processed

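RNA-seq of *N. goesingensis* roots was available as 12 libraries in 4 groups by the sample labels. The authors trimmed reads with cutadapt 1.8.1, aligned them with HISAT2 2.1.0 to the *A. thaliana* genome TAIR10 and ran Cuffdiff of Cufflinks 2.2.1 with geometric normalization, per the methods and the submitters' processing notes. The authors deposited FPKM values, 1 value for each group and gene. The header of the group files reads TPM, the unit was not settled, and the values are called FPKM here as in the methods. The deposited p-value column was read only to check the filter, and 0 genes were at or above 0.05. The authors' fold changes were not used. The group files and the comparison tables differed in 0 values, and 0 columns of values were left unmapped. The deposited values carry no counts, and the read statistics of the study were used only to say that 1 library was far shallower, so no interval was computed. The use of strand in counting is not stated in the methods or labels, so a gene and an antisense partner cannot be told apart.

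Log2 ratios were computed after adding 0.1 FPKM, with a size of at least 1 called past 2-fold, and the calculation was tested on simulated data. All planned results are counts and ratios without a test. Alternatives were pseudocounts of 1 and none, filters of 1 FPKM in both groups and 5 FPKM in 1 or more groups, thresholds of 2 and 0.5, and centring on the median of all listed genes. Every listed gene of the set is named. Of the further pathway lists, up to 6 genes each with the largest ratios and at least 1 FPKM in both groups are named, and all listed markers. The members and lists were chosen with earlier results of these data known. The tables hold locus identifiers, and the symbols and roles are those in common use for *A. thaliana*, given as background and not checked against an annotation here. Counts by direction under centring and the marker sum without *IRT1* were added after the values were seen. One planned root marker is not reported here and was left out of the marker counts. Loci are printed counting from 1. Python 3.11.15, numpy 2.4.6, pandas 2.3.3 and matplotlib 3.10.9 were used.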

Additional observations from a re-analysis of the deposited data

How the results depend on the processing

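Of the counts of listed genes and of genes past 2-fold, those that moved by more than 1.5 times did so under another threshold. With a log2 threshold of 2, 1 gene with Ni (*GSL-OH*) and 0 genes without Ni were past it, in place of 8 and 7. With a threshold of 0.5, 1 of the 5 genes listed in both states (*SUR1*) was past it for Ni over control in NTM, in place of 0. Centring ratios on the median of all listed genes moved them upward, since that median was -0.91 with Ni and -0.71 without Ni. It lies among the genes lower in TM, which outnumber those higher in TM in both lists. Its distance from 0 arises because the lists hold few genes near 0. Under this centring *CYP81F3* without Ni reversed to 0.040, 9 genes with Ni and 9 without Ni were past 2-fold, all of them higher in TM, where 5 with Ni and 4 without Ni had been higher and 3 in each state lower. The 2-fold calls of *BCAT3*, *CYP79F1*, *CYP81F1* and *ESM1* were thus lost, while 9 with Ni and 10 without Ni were higher in TM. Of the single ratios, 10 moved past 2-fold, 11 moved back within it, 15 stayed on their side and 1 reversed. *BCAT3* and *CYP81F1* with Ni came close to 0 at -0.11 and -0.16, as did *IGMT2* and *CYP71A13* without Ni at -0.15 and -0.04. A pseudocount of 1 moved 1 ratio, that of *IGMT4* without Ni, to -0.98. No paired analysis was possible because each group has 1 deposited value, and no library could be left out for the same reason.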
